A study of Mus musculus with 20 samples.

Results

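The macrophage and monocyte identity genes described here were 37 genes selected by symbol from the 14793 genes of a knee joint RNA table, and all 37 were measured. Macrophages and their blood precursors, the monocytes, depend on the growth factor CSF1 and its receptor and on the transcription factor PU.1, and they read their surroundings through scavenger, Fc, lectin and CD300 receptors. Many of the activating receptors have no signalling tail of their own and pair with the small adaptors DAP12 (gene Tyrobp) or the Fc receptor gamma chain (gene Fcer1g). In the joint, macrophages line the synovium, clear dying cells and debris, and can be replaced or joined by recruited monocytes after injury.

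Bulk RNA was sequenced from the operated knees of 20 male C57BL/6Nci mice, 12 weeks old at the start, with 5 mice in each of 4 groups. All mice had destabilization of the medial meniscus (DMM), a surgical model of osteoarthritis, so no unoperated joint served as a reference. Control joints received needle insertion alone at weeks 3 and 5, with neither cells nor fluid, and the other joints received adipose mesenchymal stromal cells that were left non-activated (MSC), exposed beforehand to pIC, a synthetic double-stranded RNA that TLR3 senses (TLR3-MSC), or exposed to 2′3′cGAMP, a ligand of the STING pathway (STING-MSC). The injected cells came from 1 pool of donor mice of the same strain, so their transcripts and those of the host cannot be told apart. Each group began with 10 mice, of which 5 gave RNA, and whole joints were taken with cartilage, synovium, capsule and subchondral bone, which carries marrow. The time between the last injection and tissue collection is described in 2 ways in the study's text and is not used here.

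The values were normalized counts, that is, read counts divided by a size factor for each joint. Recovered totals ran from 27955496 to 52529972 reads per joint. In 1 MSC joint, replicate 5, 296 genes were listed at 0, and 239 of them were at 0 in no other joint. Marco and Arg1 were among those at 0 there. The other 35 genes had at least 10 reads in every joint. In tissue RNA of this kind, fewer cells of a type and less RNA per cell cannot be told apart.

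Genes of the labelled cell type were read in every joint, but several of the highest followed genes of other cells. With group means subtracted, Tyrobp and Fcer1g followed the neutrophil genes described further on (r = 0.92 and 0.95). Hmox1 followed the erythroid genes (r = 0.93). Levels of different genes were compared as mean normalized counts per kilobase of merged exon length. Tyrobp was highest at 10137 per kilobase, followed by Apoe, a lipid carrier of tissue macrophages, at 9171 per kilobase. Hmox1 (5106), which breaks down heme, Fcer1g (4717) and Lgals3 (4611), the lectin galectin-3, came next on that scale. Of the classical markers, Cd68, a lysosomal glycoprotein, stood at 2691 per kilobase, Spi1, which encodes PU.1, at 2076, Csf1r, the CSF1 receptor, at 1268 and Adgre1, the F4/80 antigen, at 892. The lowest levels per kilobase were those of Marco (43.7), Timd4 (43.7), Folr2 (31.4) and Arg1 (9.28). The order depended on the length used. Per kilobase of the canonical transcript alone, Apoe was first (17021), Ly6c2 moved from rank 6 to rank 2 and Tyrobp was at rank 3 (11389), and Arg1 was again the lowest.

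The promoters of Spi1 and of the 3 CD300 genes among the selected genes are shown. Those 3, neighbours on chromosome 11, were each called higher in MSC and in STING-MSC joints. Spi1 encodes the factor whose core motif was searched. The CD300 family as a whole was not uniform. Of its members outside the selection, Cd300lb was called higher in MSC but not in STING-MSC joints, and Cd300lg was not called higher in either. Each line gives the 250 bases before the canonical transcript start of GENCODE M39 on GRCm39, 5′ to 3′ on the strand of the gene, and none of the 4 stretches overlaps an annotated exon. Capitals mark GAGGAA, the core of the PU.1 site, or TTCCTC, the same letters read from the other strand. Cd300ld lies at chr11:114880749-114880998 on the minus strand, Cd300lf at chr11:115024819-115025068 on the minus strand, Cd300a at chr11:114780617-114780866 on the plus strand and Spi1 at chr2:90926191-90926440 on the plus strand. The Spi1 gene as deposited spans chr2:90912735-90946102, so its stretch lies inside the gene, after the deposited gene start.

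Cd300ld: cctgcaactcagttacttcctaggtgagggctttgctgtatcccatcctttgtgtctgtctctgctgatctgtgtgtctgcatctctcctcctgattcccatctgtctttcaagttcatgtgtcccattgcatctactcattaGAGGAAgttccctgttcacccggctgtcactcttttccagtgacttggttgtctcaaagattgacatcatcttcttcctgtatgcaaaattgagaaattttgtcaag
Cd300lf: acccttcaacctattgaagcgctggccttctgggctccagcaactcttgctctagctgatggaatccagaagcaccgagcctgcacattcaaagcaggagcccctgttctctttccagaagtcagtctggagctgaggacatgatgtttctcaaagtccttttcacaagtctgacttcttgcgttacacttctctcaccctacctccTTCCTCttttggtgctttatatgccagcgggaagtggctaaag
Cd300a: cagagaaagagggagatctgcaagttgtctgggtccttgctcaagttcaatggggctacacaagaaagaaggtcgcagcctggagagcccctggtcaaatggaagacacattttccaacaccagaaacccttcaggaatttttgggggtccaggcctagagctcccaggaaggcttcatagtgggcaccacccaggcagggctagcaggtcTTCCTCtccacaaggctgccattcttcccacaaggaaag
Spi1: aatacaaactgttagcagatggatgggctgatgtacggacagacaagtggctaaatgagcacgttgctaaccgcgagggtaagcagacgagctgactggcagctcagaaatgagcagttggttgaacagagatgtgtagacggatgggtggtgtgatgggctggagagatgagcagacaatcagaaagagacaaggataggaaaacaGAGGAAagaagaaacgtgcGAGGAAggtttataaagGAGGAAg

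The motif began 107 bases before the start in Cd300ld, 43 in Cd300lf and 39 in Cd300a. Spi1 held it 3 times, at 43, 24 and 7 bases before its start. Over all 37 genes, 17 promoters (45.95%) held the motif on either strand, beside 23.62% of 14770 promoters of the table. Of the 10 genes called against control in the comparisons that follow, 9 held it, and of the 27 others 8 did, a description with no test since the grouping was made from these data. The AP-1 motif TGAGTCA stood in 3 of the 37 promoters (8.108%) and in 3.304% of all promoters, and in none of the 4 shown.

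The first question was whether joints given non-activated MSC differed from needle-only joints in these genes. A gene was called at an unadjusted p of at most 0.05 in limma, fitted over all genes and joints on log2(normalized count + 1), and log2 differences below are on that scale. Of the 37 genes, 9 were called higher in MSC joints and 0 lower (24.3%), beside 8.55% of all 14793 genes called in either direction and 5.64% called higher. The 37 genes were chosen with earlier results of these data known, so these shares, here and below, are a description and not a test. The 9 called genes were Cd300ld, Cd300lf, Cd300a, Tyrobp, Fcer1g, Fcgr3, Spi1, Ly6c2 and Clec10a. At a Benjamini-Hochberg false discovery rate (FDR) of at most 0.05, limma called 0 of the 37 (0.00676% of all genes, which is 1 gene), edgeR called Cd300ld and DESeq2 called Cd300ld. No called gene reached a 2-fold difference. The median log2 difference was 0.02 over the 37 genes and -0.04 over all genes. The limma count was 4 without control replicate 4, 5 without control replicate 5 and 4 without MSC replicate 3. In those fits 852, 1131 and 897 of all 14793 genes were called, beside 1265 with every joint kept.

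The same control joints served the comparisons of TLR3-MSC and STING-MSC with control, so the 3 comparisons are not independent. TLR3-MSC joints had 3 genes called higher, Clec10a, Fcgr3 and Cd300ld, and 0 called lower, beside 3.58% of all genes called in either direction and 2.68% called higher. Leaving out control replicate 1 gave 7 called genes and leaving out TLR3-MSC replicate 3 gave 5. Those fits called 810 and 530 of all 14793 genes, beside 530 with every joint kept. STING-MSC joints had 9 called higher and 0 lower, beside 12.2% of all genes in either direction and 6.54% higher. Those 9 were Cd300ld, Cd300lf, Cd300a, Tyrobp, Fcgr3, Clec7a, Spi1, Ly6c2 and Clec10a. No gene reached an FDR of at most 0.05 in limma in either comparison, with 3 and 9 genes at an unadjusted p of at most 0.05. edgeR gave 4 and 9 genes at that unadjusted p, beside 3.81% and 13.3% of all genes, and 0 at FDR. DESeq2 gave 4 and 9, beside 4.26% and 15.2% of all genes. At FDR it called Cd300ld in STING-MSC joints, where 85 of 14754 genes passed, and none of the 37 in TLR3-MSC joints, where 3 genes passed. The median log2 difference of the 37 was 0.09 in TLR3-MSC and 0.13 in STING-MSC joints, beside -0.01 and 0.01 over all genes.

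**Figure D1:**
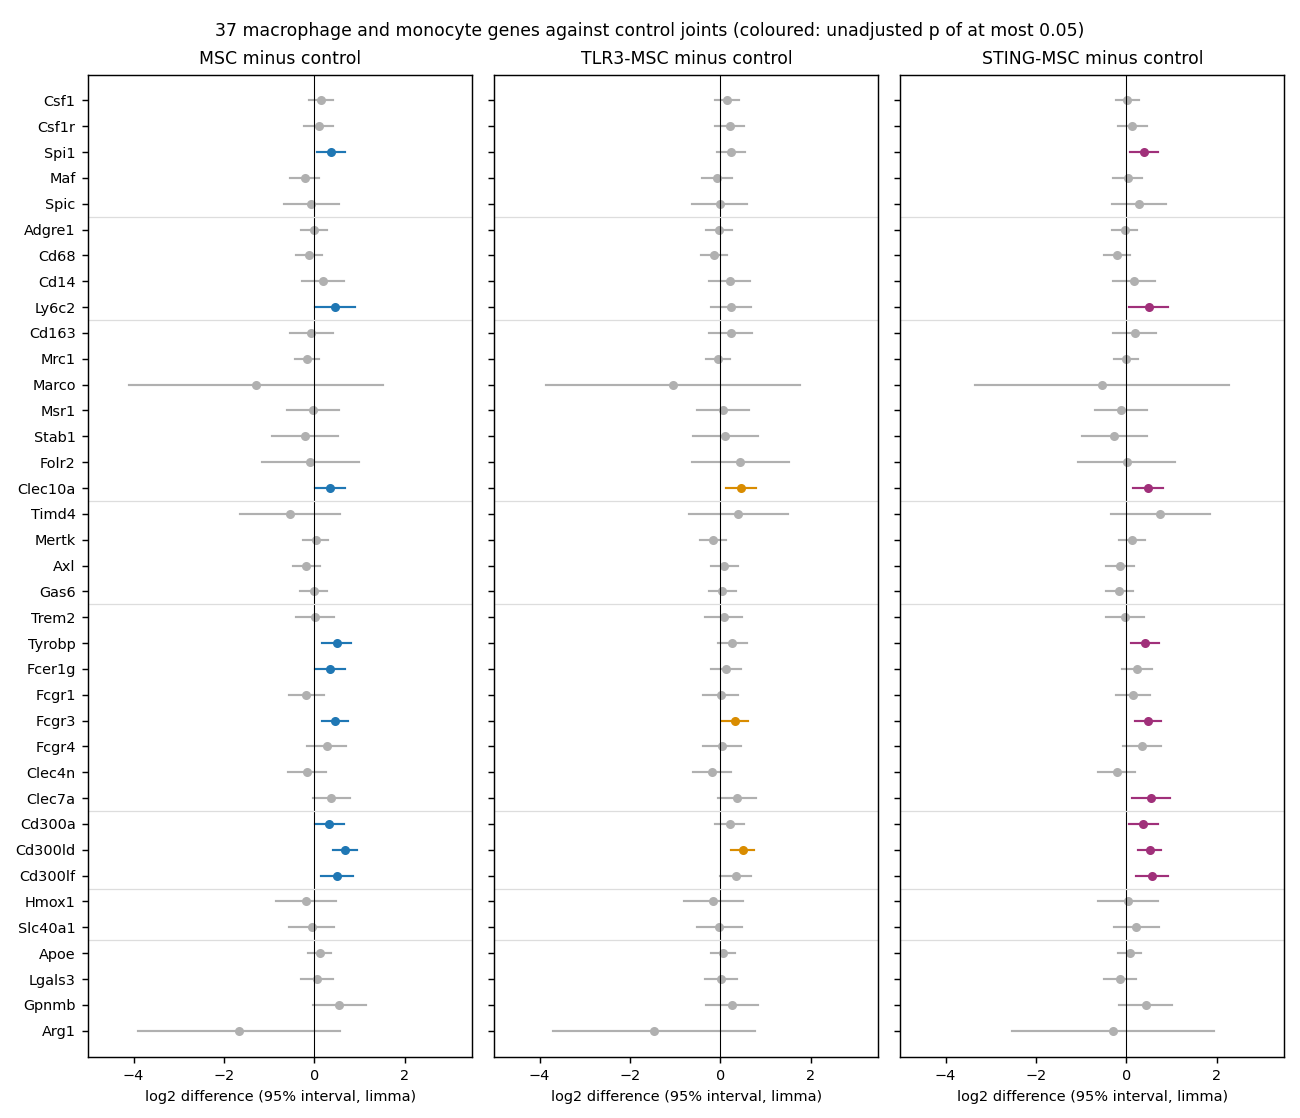
Log2 differences of the 37 genes from control joints with 95% intervals from limma, one panel for each treated group (n = 5 joints in each), ordered by role from CSF1 axis to effectors. Coloured genes passed at an unadjusted p of 0.05 or less and all lie to the right of 0, and the 3 CD300 genes are coloured in the MSC and STING-MSC panels.

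The CD300 receptors are immunoglobulin-like receptors on myeloid cells that bind lipids of dying cells and other ligands. Cd300ld, which signals through adaptor chains, was the one gene of the 37 whose treated joints lay above every control joint in all 3 comparisons. Groups that did not overlap in that direction made up 0.737% of all genes in the MSC comparison, 0.575% in the TLR3-MSC comparison and 0.933% in the STING-MSC comparison. The gene lies at chr11:114873100-114880749 as deposited. Its normalized counts in the 5 control joints were 757, 617, 738, 688 and 576. In MSC joints they were 1152, 983, 1249, 1202 and 846. In TLR3-MSC joints they were 973, 780, 908, 1124 and 979, and in STING-MSC joints 1041, 823, 1112, 852 and 1022. The lowest treated joint, at 780, was thus above the highest control joint, at 757.

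Cd300ld averaged 675 ± 77.2 (SD, n = 5) in control joints, 1086 ± 168 in MSC, 953 ± 125 in TLR3-MSC and 970 ± 126 in STING-MSC joints. The log2 difference from control was 0.68 (SE 0.12, limma adjusted p = 0.0647) in MSC joints. It was 0.49 (adjusted p = 0.9997) in TLR3-MSC and 0.52 (adjusted p = 0.262) in STING-MSC joints, with the same SE. The exact two-sided permutation p was 0.00794 in each comparison, the smallest that 5 joints against 5 can give. With other tests the adjusted p for MSC was 0.0482 in edgeR and 0.000211 in DESeq2, and DESeq2 gave 0.124 for TLR3-MSC. Leaving out single joints moved the limma value for MSC between 0.0240, without MSC replicate 5, and 0.242, without MSC replicate 3. It was also below 0.05 without control replicate 1 (0.0354) and without MSC replicate 2 (0.0349). The treated groups were not separated from each other. STING-MSC minus MSC was -0.16 with a 95% interval from -0.42 to 0.10, TLR3-MSC minus MSC was -0.18 (-0.44 to 0.07) and STING-MSC minus TLR3-MSC was 0.03 (-0.23 to 0.28).

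Cd300lf, an inhibitory receptor with a tail that recruits phosphatases, was at 2090, 1775, 1367, 1184 and 1720 in control joints and at 2705, 1786, 2323, 2675 and 1938 in MSC joints. STING-MSC joints stood at 2275, 1960, 2420, 2240 and 3115, with 4 of 5 above all controls, and TLR3-MSC joints at 2098, 1843, 1745, 2760 and 1798. Control replicate 1 was high enough to overlap each treated group. The log2 differences from control were 0.50 in MSC (exact permutation p = 0.0397, limma adjusted p = 0.343), 0.34 in TLR3-MSC (0.103 and 0.9997) and 0.57 in STING-MSC joints (0.0159 and 0.290). Cd300a, also inhibitory, was at 2262, 1725, 1738, 1506 and 1891 in control joints and at 2775, 1794, 2717, 2606 and 1734 in MSC joints. It was at 2294, 1878, 1709, 2478 and 2197 in TLR3-MSC and at 2192, 1935, 2592, 2281 and 2837 in STING-MSC joints. For Cd300a the difference was 0.33 in MSC (exact permutation p = 0.0952), 0.21 in TLR3-MSC (0.198) and 0.38 in STING-MSC joints (0.0317), with limma adjusted p of 0.564, 0.9997 and 0.368. The Cd300a call in MSC joints was lost without control replicate 2, 3 or 4 or MSC replicate 1, 3 or 4 (0.26 at the lowest), and that in STING-MSC joints without control replicate 4 or STING-MSC replicate 3 or 5 (0.31 at the lowest). Cd300lf overlaps Rab37 on the opposite strand, and because the strand setting of the counting is not stated in the sources used here, reads of that pair are uncertain. Similar copies within the CD300 cluster make the split of reads among its members uncertain too.

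Tyrobp, the adaptor DAP12, was at 7045, 5702, 5553, 4936 and 4662 in control joints. In MSC joints it was at 9675, 6534, 8236, 9001 and 6026, in TLR3-MSC joints at 6353, 5650, 6041, 8427 and 7125 and in STING-MSC joints at 6602, 6068, 8821, 7505 and 8304. In both MSC and STING-MSC joints 3 of 5 lay above all controls. The log2 difference was 0.49 (SE 0.15, limma p = 0.00387, adjusted p = 0.303, exact permutation p = 0.0317) in MSC and 0.42 (p = 0.0112, exact permutation p = 0.0317) in STING-MSC joints. In TLR3-MSC joints it was 0.27 with an interval from -0.04 to 0.58. Fcer1g, the second adaptor, was called in MSC joints alone at 0.35 (exact permutation p = 0.111, limma adjusted p = 0.558). The call was lost without control replicate 2, 4 or 5 or MSC replicate 1, 3 or 4 (0.27 at the lowest). Its means were 4817 in control, 6183 in MSC, 5187 in TLR3-MSC and 5682 in STING-MSC joints. Per joint, Fcer1g was at 6320, 4701, 5125, 3745 and 4197 in controls and at 7385, 4803, 6667, 7452 and 4609 in MSC joints, so 2 of the 5 MSC joints lay within the control range. It was at 5395, 4405, 4841, 5993 and 5301 in TLR3-MSC joints and at 5014, 4578, 6847, 5866 and 6103 in STING-MSC joints. Neither STING-MSC minus MSC nor TLR3-MSC minus MSC was called for this gene, at -0.11 (-0.44 to 0.23) and -0.23 (-0.56 to 0.10).

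Fcgr3, an activating receptor for immunoglobulin G that uses the gamma chain, was called in all 3 comparisons with control. Control joints were at 4231, 3194, 2975, 2748 and 2957, and replicate 1 stood well above the other 4. MSC joints were at 5420, 3871, 4723, 4672 and 3409, TLR3-MSC joints at 3901, 3464, 3775, 4821 and 3991, and STING-MSC joints at 4205, 3720, 5535, 4290 and 4598. Every treated joint was above 4 of the 5 control joints. Its log2 differences were 0.45, 0.32 and 0.48, with exact permutation p of 0.0317, 0.0556 and 0.0238 and limma adjusted p of 0.303, 0.9997 and 0.290. In TLR3-MSC joints the call was lost without control replicate 3, 4 or 5 or TLR3-MSC replicate 4 (0.25 at the lowest). Part of the sequence of Fcgr3 is shared with Fcgr2b, so its reads are uncertain to that extent. Fcgr1 and Fcgr4, the other Fc receptors among the 37 genes, were not called in any comparison. Fcgr1, the high-affinity receptor, differed from control by -0.17 in MSC, 0.01 in TLR3-MSC and 0.15 in STING-MSC joints, and Fcgr4 by 0.27, 0.04 and 0.35.

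Clec7a, the beta-glucan receptor Dectin-1, was called in STING-MSC joints, which were at 2285, 2552, 4084, 2710 and 3396 against 2771, 2183, 2077, 1419 and 1809 in controls. MSC joints were at 3395, 2148, 2777, 2998 and 1964 and TLR3-MSC joints at 2487, 2301, 1968, 3373 and 3038. The difference was 0.55 (exact permutation p = 0.0397, limma adjusted p = 0.331) in STING-MSC joints, and 0.38 (0.119 and 0.622) in MSC and 0.37 (0.135 and 0.9997) in TLR3-MSC joints did not pass. Its relative Clec4n (Dectin-2) was low, from 110 to 232 in all 20 joints, and was not called, with differences from -0.21 to -0.16. Trem2, a lipid receptor that signals through DAP12, differed from control by 0.02, 0.07 and -0.02, with group means between 1317 and 1403. Its partner Tyrobp was called in MSC and STING-MSC joints while Trem2 was not, and the difference between the genes was not tested.

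**Figure D2:**
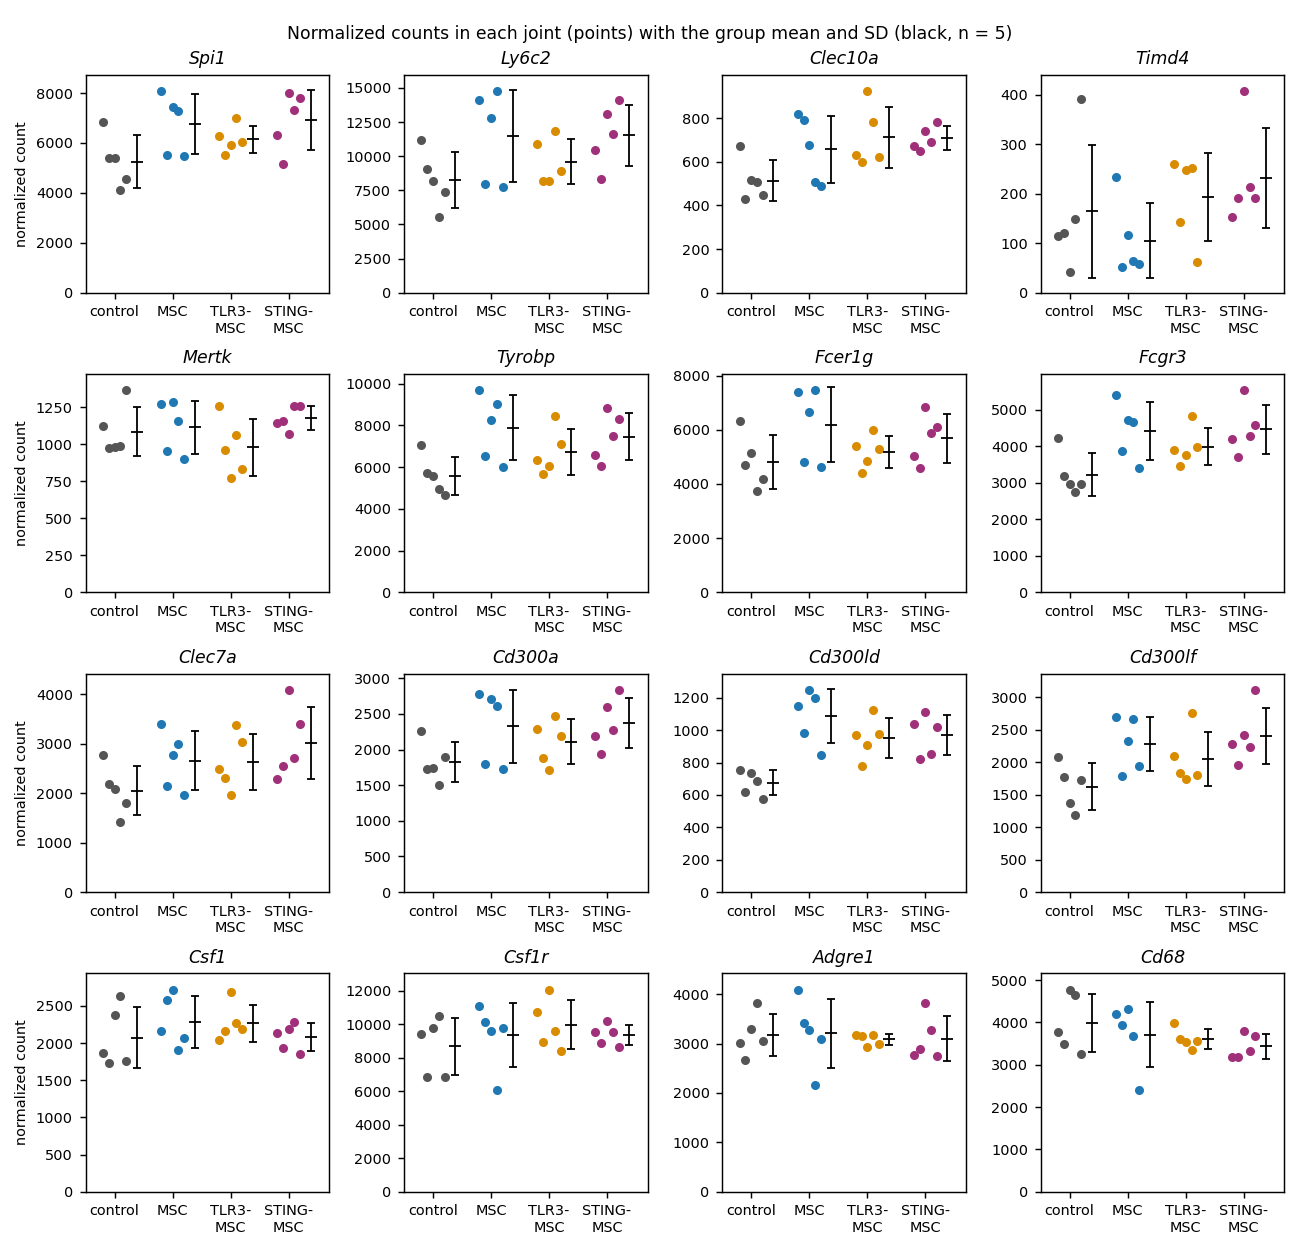
Normalized counts of the 12 genes called in any comparison and of 4 defining markers (Csf1, Csf1r, Adgre1 and Cd68), one point for each joint, with the group mean and SD (n = 5) in black. The Cd300ld control joints, from 576 to 757, all sit under the treated joints, whereas the groups overlap for Csf1r, Adgre1 and Cd68.

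Of the growth factor axis and lineage factors, Spi1 alone was called. Spi1 was at 6851, 5397, 5390, 4109 and 4540 in control joints, at 8094, 5537, 7429, 7268 and 5473 in MSC joints and at 6333, 5141, 8012, 7326 and 7795 in STING-MSC joints. TLR3-MSC joints were at 6282, 5510, 5917, 6990 and 6042. Control replicate 1 was again the highest control. For Spi1 the log2 difference was 0.37 in MSC (exact permutation p = 0.0476, limma adjusted p = 0.462), 0.24 in TLR3-MSC (0.111 and 0.9997) and 0.40 in STING-MSC joints (0.0556 and 0.336). In MSC joints the call was lost without control replicate 4 or 5 or MSC replicate 1 or 3, where the difference fell to 0.28 at the lowest. PU.1 is made by neutrophils and B cells as well as by macrophages.

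Csf1 and Csf1r, the ligand and receptor on which most tissue macrophages depend, were not called in any comparison. Csf1 was at 1860, 1737, 2378, 2635 and 1759 in control joints, 2160, 2581, 2718, 1903 and 2069 in MSC, 2036, 2163, 2689, 2268 and 2188 in TLR3-MSC and 2139, 1936, 2195, 2286 and 1849 in STING-MSC joints. Csf1r averaged 8677 ± 1696, 9333 ± 1909, 9954 ± 1463 and 9360 ± 607 (SD, n = 5) in control, MSC, TLR3-MSC and STING-MSC joints. The groups overlapped for both genes. In control joints Csf1r was at 9413, 6871, 9776, 10466 and 6862, in MSC at 11085, 10136, 9606, 6076 and 9761, in TLR3-MSC at 10751, 8950, 12061, 9587 and 8423 and in STING-MSC joints at 9533, 8886, 10197, 9523 and 8659. The log2 differences from control were 0.10 (-0.22 to 0.42), 0.21 (-0.11 to 0.53) and 0.13 (-0.19 to 0.45). Csf1r overlaps Hmgxb3 on the opposite strand. Maf, a factor of resident macrophages, differed by -0.22, -0.07 and 0.03, and Spic, the factor of red-pulp and marrow macrophages that recycle iron, by -0.07, -0.02 and 0.28, none called.

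Among the surface markers, Adgre1 and Cd68 were close to level. Adgre1 was at 3005, 2671, 3304, 3822 and 3054 in control joints and at 4091, 3406, 3283, 2164 and 3094 in MSC joints. TLR3-MSC joints were at 3183, 3142, 2931, 3170 and 2997 and STING-MSC joints at 2771, 2892, 3812, 3267 and 2748. Its differences from control were -0.00 (interval -0.28 to 0.28), -0.03 (-0.31 to 0.25) and -0.03 (-0.32 to 0.25), so a 2-fold change in either direction lay outside each interval. Cd68 was at 3771, 3494, 4773, 4647 and 3258 in controls and at 4187, 3941, 4318, 3677 and 2400 in MSC joints. It was at 3993, 3611, 3534, 3350 and 3568 in TLR3-MSC and at 3173, 3186, 3807, 3321 and 3680 in STING-MSC joints. The differences were -0.12 (-0.41 to 0.17), -0.13 (-0.42 to 0.16) and -0.20 (-0.49 to 0.08), all with a sign opposite to that of the called genes. Cd14, the co-receptor for bacterial lipopolysaccharide, differed by 0.19, 0.20 and 0.17 with intervals from -0.29 to 0.66 at the widest.

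Ly6c2, a marker of classical monocytes that is also made by marrow precursors, was called in MSC joints at 0.45 (SE 0.21, p = 0.0434, exact permutation p = 0.119) and in STING-MSC joints at 0.49 (p = 0.0301, exact permutation p = 0.0556). Control joints were at 11183, 9033, 8165, 5566 and 7401. MSC joints were at 14114, 7978, 12790, 14793 and 7708, with 3 of 5 above all controls. STING-MSC joints were at 10447, 8355, 13050, 11632 and 14138. TLR3-MSC joints, at 10862, 8171, 8196, 11830 and 8940, gave 0.24 (exact permutation p = 0.278). The call in MSC joints was lost without control replicate 3, 4 or 5 or MSC replicate 1, 3 or 4 (0.32 at the lowest), and that in STING-MSC joints without control replicate 4 or 5 or STING-MSC replicate 3 or 5 (0.36 at the lowest). Ly6c2 shares much of its sequence with Ly6c1, so the split of reads between them is uncertain.

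The scavenger receptors and markers of resident macrophages were not called, with the exception of Clec10a, the galactose lectin of macrophages and dendritic cells. Clec10a was at 671, 430, 514, 505 and 448 in control joints and at 818, 791, 677, 509 and 490 in MSC joints. TLR3-MSC joints were at 632, 599, 925, 782 and 622, and STING-MSC joints at 674, 647, 740, 691 and 784. The 5 STING-MSC joints varied least (SD 54.7), and 4 of them lay above all controls. For Clec10a the log2 differences were 0.34, 0.47 and 0.48, with exact permutation p of 0.119, 0.0317 and 0.0159 and limma adjusted p of 0.576, 0.9997 and 0.315. The call in MSC joints was lost without control replicate 2, 3, 4 or 5 or MSC replicate 1, 2 or 3 (0.25 at the lowest). Cd163, the haptoglobin-hemoglobin receptor, differed by -0.07, 0.23 and 0.19, and Mrc1, the mannose receptor, by -0.16, -0.05 and -0.02. Msr1 (-0.03, 0.06 and -0.12), Stab1 (-0.21, 0.11 and -0.26) and Folr2 (-0.09, 0.44 and 0.01) had wide intervals. Stab1 ranged over 5.88-fold and Folr2 over 11.5-fold among the 20 joints. Stab1 overlaps Nt5dc2 on the opposite strand.

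Marco, the scavenger receptor of marginal zone and alveolar macrophages, had few reads in most joints and many in a few. Control joints were at 12.7, 21.7, 5.03, 275 and 284 and MSC joints at 681, 6.73, 14.9, 19.0 and 0. TLR3-MSC joints ran from 11.3 to 44.7 and STING-MSC joints from 13.4 to 177. No 2 groups could be separated, with intervals from control as wide as -4.10 to 1.52. Arg1, the arginase of alternatively activated macrophages and also of neutrophils, was at 30.7, 10.9, 5.03, 4.57 and 292 in control joints and at 10.5, 12.2, 125, 5 and 10.6 in STING-MSC joints, so that 1 joint in each stood far above the rest. It reached 12.4 in MSC and 26.9 in TLR3-MSC joints.

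Of the 37 genes, 1 was called in each of 2 comparisons between cell-treated groups (2.7%). Of all genes, 4.94% were called in STING-MSC minus MSC and 2.57% in STING-MSC minus TLR3-MSC. The count was thus below the share of all genes in the first comparison and close to it in the second. Timd4, the phosphatidylserine receptor TIM-4 of long-lived resident macrophages, averaged 231 ± 101 in STING-MSC and 105 ± 76.2 in MSC joints (SD, n = 5). STING-MSC joints were at 152, 191, 408, 214 and 192, and MSC joints at 233, 52.2, 117, 64.3 and 58.0, so that the single highest MSC joint overlapped the STING-MSC group. Control joints were at 115, 121, 42.7, 149 and 392 and TLR3-MSC joints at 260, 143, 248, 253 and 61.0. STING-MSC minus MSC was 1.29 on the log2 scale (SE 0.52, limma p = 0.0238, adjusted p = 0.938, exact permutation p = 0.0397), the one call above 2-fold. It was 1 of 37 genes, beside 4.94% of all genes called in that comparison. The call was lost in edgeR and without MSC replicate 2, 4 or 5 or STING-MSC replicate 3, which moved the difference between 1.06 and 1.64 over all joints left out. TLR3-MSC minus MSC was 0.94 for Timd4 (exact permutation p = 0.0952), and against control neither MSC (-0.54) nor STING-MSC (0.75) passed.

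Mertk, a receptor kinase that takes up apoptotic cells, was called in STING-MSC minus TLR3-MSC at 0.28 (limma p = 0.0469, adjusted p = 0.890, exact permutation p = 0.0873), where 2.57% of all genes were called. Its values were 1141, 1157, 1066, 1258 and 1259 in STING-MSC and 1261, 960, 775, 1065 and 834 in TLR3-MSC joints, and the highest joint of both groups was a TLR3-MSC joint. MSC joints were at 1271, 953, 1282, 1158 and 901, and control joints at 1120, 977, 983, 985 and 1364. The call was absent in edgeR, in DESeq2, with a replicate block and with the neutrophil covariate described further on, and without TLR3-MSC replicate 2, 3 or 5 or STING-MSC replicate 1, 2, 4 or 5 (0.20 at the lowest). TLR3-MSC minus MSC had 0 of 37 called in limma and edgeR and 1 in DESeq2, beside 3.88% of all genes at an unadjusted p of at most 0.05 in limma. Axl, the related kinase, and Gas6, the bridging ligand of both, were not called. Axl differed from control by -0.17, 0.09 and -0.14 and Gas6 by -0.02, 0.05 and -0.15. Gas6 overlaps Tmem255b on the opposite strand.

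Heme and iron genes and lipid, lectin and arginine effectors had no calls. Hmox1 differed from control by -0.19, -0.15 and 0.04 and Slc40a1, the iron exporter ferroportin, by -0.06, -0.02 and 0.22, and both varied widely between joints, over 4.04-fold and 2.42-fold. Apoe varied least of the 37, over 1.44-fold, with differences of 0.12, 0.07 and 0.07. Lgals3 differed by 0.06, 0.02 and -0.14. Gpnmb, a glycoprotein of lipid-laden macrophages and osteoclasts, had the largest positive difference in MSC joints among genes not called, 0.56 with an interval from -0.03 to 1.14.

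The next step took 8 pairs of genes. Each was a ligand with its receptor, a receptor with its adaptor, a regulator with its target or markers of the same state. The pairs were followed across the 20 joints after subtracting group means, with 100000 permutations within groups and adjustment over the 8 pairs. Spic and Hmox1, a factor and an enzyme of heme-recycling macrophages, moved together most closely, with r = 0.98 and rho = 0.97 (adjusted permutation p of 4e-05 and 2.67e-05). Fcgr3 and its adaptor Fcer1g had r = 0.92 and rho = 0.93 with the same adjusted p. Gas6 and Axl had r = 0.83 and rho = 0.88 (adjusted permutation p of 0.000107 and 2.67e-05), and Csf1 and Csf1r had r = 0.68 and rho = 0.66 (0.0175 and 0.0167). Gas6 and Mertk moved in opposite directions, with r = -0.59 and rho = -0.66 (0.0283 and 0.0167). The relation of Gas6 with its receptors thus differed in sign between Axl and Mertk. Gas6 and Axl both rose with the fibroblast genes described further on (r = 0.91 and 0.88), and Mertk went the other way (r = -0.57). The part of tissue make-up in these relations was not tested. Without the 2 joints farthest from the median of the first gene, r was 0.97, 0.90, 0.78, 0.66 and -0.58 for these 5 pairs in the order given. Trem2 and Tyrobp (r = 0.04, rho = -0.05), Cd163 and Folr2 (-0.08 and -0.14) and Lgals3 and Gpnmb (0.50 and 0.44) did not pass, at adjusted permutation p for r of 0.883, 0.821 and 0.141. Without the 2 joints farthest from the median, r for Lgals3 and Gpnmb was 0.36. Within-group subtraction leaves differences in tissue make-up between joints in place.

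**Figure D3:**
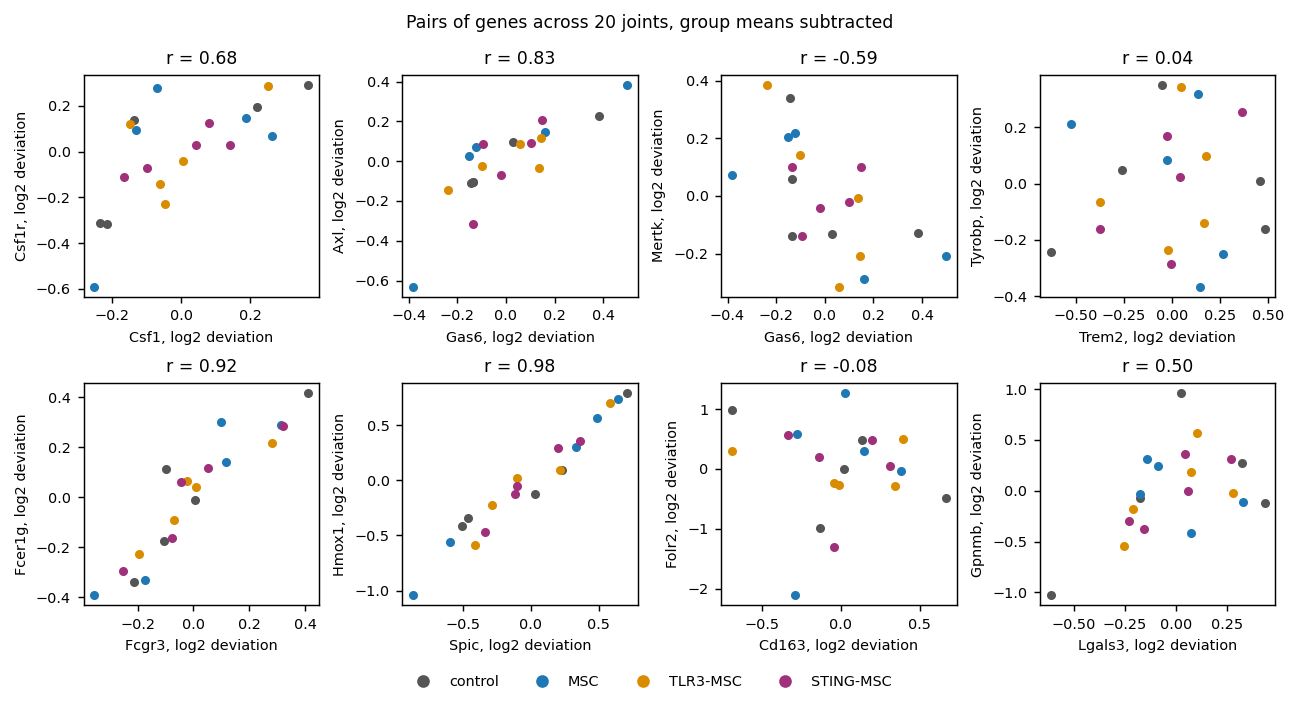
Deviations of log2 values from the group mean in 20 joints for the 8 pairs, coloured by group, with Pearson r above each panel. Spic and Hmox1 lie along a line (r = 0.98), Gas6 and Mertk slope downward (r = -0.59) and Trem2 and Tyrobp show no slope (r = 0.04).

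Because the called genes include several that other myeloid cells make, the cell lists were set beside them. Of 14 neutrophil genes (S100a8, S100a9, Ngp, Camp, Ltf, Lcn2, Mpo, Elane, Prtn3, Ly6g, Retnlg, Mmp8, Cxcr2 and Padi4), which include genes of marrow precursors, 10 were called higher in MSC, 2 in TLR3-MSC and 12 in STING-MSC joints, 0 were called lower, and none was at 0 in any joint. Their summed normalized counts ran from 428208 to 771647 in control, 613712 to 1050490 in MSC, 578057 to 888816 in TLR3-MSC and 613620 to 960175 in STING-MSC joints. Of 8 genes of all leukocytes, 7, 0 and 6 were called higher. The summed leukocyte level ran from 69318 to 113713 in control and from 88757 to 138385 in MSC joints, from 90429 to 122198 in TLR3-MSC and from 87143 to 139428 in STING-MSC joints. Of 8 fibroblast genes, 2 were called lower in STING-MSC joints and 0 in the other groups against control, with sums from 407620 to 1483370 in control, from 165577 to 1223560 in MSC, from 410591 to 1073570 in TLR3-MSC and from 170180 to 403541 in STING-MSC joints. Of the other cell lists, 3 of 6 endothelial genes were called lower in STING-MSC and 1 in TLR3-MSC joints. All 6 adipocyte genes had a higher mean in each treated group, with median log2 differences of 0.38, 0.97 and 0.67 and 2 called, both in TLR3-MSC joints. Of 7 mast cell genes, 2 were called higher in TLR3-MSC and 1 in STING-MSC joints. Of 8 dendritic cell genes 1 was called higher in MSC and 1 in STING-MSC joints, and of 8 keratinocyte genes 1 was called higher in TLR3-MSC and 1 lower in STING-MSC joints. In STING-MSC joints 1 of 10 B lineage and 1 of 10 osteoclast genes were called lower, and 0 of 9 erythroid genes were called in any group against control. Of all 14793 genes, 835, 396 and 967 were called higher in MSC, TLR3-MSC and STING-MSC joints, and 430, 134 and 841 were called lower. A single call in lists this short is not told apart from those shares. The cell lists were chosen with earlier results of these data known, so their counts are a description. The part of the cell lists in the results was not tested. The neutrophil genes had most of their calls in the MSC and STING-MSC comparisons, as the 37 genes did.

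The relation was then measured joint by joint, a step chosen after the data were seen. Values were taken across 20 joints with group means subtracted, and p was adjusted over 111 relations of genes and lists. With the mean log2 level of the 14 neutrophil genes, 12 of the 37 genes (32.4%) had r of at least 0.7, beside 13.2% of all genes, and 2 (5.41%) had r of -0.7 or below, beside 10.1%. Of the 10 genes called against control, 9 were among the 12, and Clec10a was the exception. With 9 erythroid genes, 8 of the 37 (21.6%) had r of at least 0.7, beside 16.1% of all genes, and they included 3 of the 10, Ly6c2, Cd300a and Cd300lf. Ly6c2 followed the neutrophil level most closely (r = 0.99, rho = 0.99, adjusted permutation p of 0.000159 and 0.000123, and r = 0.99 without 2 joints). Cd300ld had the weakest relation of the 9 (r = 0.71, rho = 0.75, adjusted permutation p of 0.00758 and 0.00384, and r = 0.77 without 2 joints). Clec10a had r = 0.28 and rho = 0.31 (adjusted permutation p of 0.383 and 0.316, and r = 0.17 without 2 joints). The defining markers Csf1r (r = -0.22), Adgre1 (-0.18) and Cd68 (0.25) had no relation that passed. The lowest r with neutrophils was that of Gas6 (r = -0.80, rho = -0.73, adjusted permutation p of 0.00146 and 0.00787, and r = -0.78 without 2 joints).

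With the fibroblast list, 5 of the 37 (13.5%) had r of at least 0.7, beside 16.2% of all genes, and 4 (10.8%) had r of -0.7 or below, beside 8.44%, so neither share stood far from that of all genes. Gas6 (r = 0.91, rho = 0.87) and Stab1 (r = 0.90, rho = 0.85) followed the fibroblast level across joints at adjusted permutation p for r of 0.000159 and 0.000256, and r was 0.84 and 0.83 without 2 joints. Spic, Hmox1 and Slc40a1 had r of 0.95, 0.93 and 0.92 with 9 erythroid genes, at adjusted permutation p for r of 0.000202, 0.000256 and 0.000159. Mertk also followed the erythroid level, with r = 0.88, rho = 0.85 and adjusted permutation p of 0.000555 and 0.00248. All values of a joint share its size factor, and the lists share the joint's mixture of marrow, synovium and bone.

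**Figure D4:**
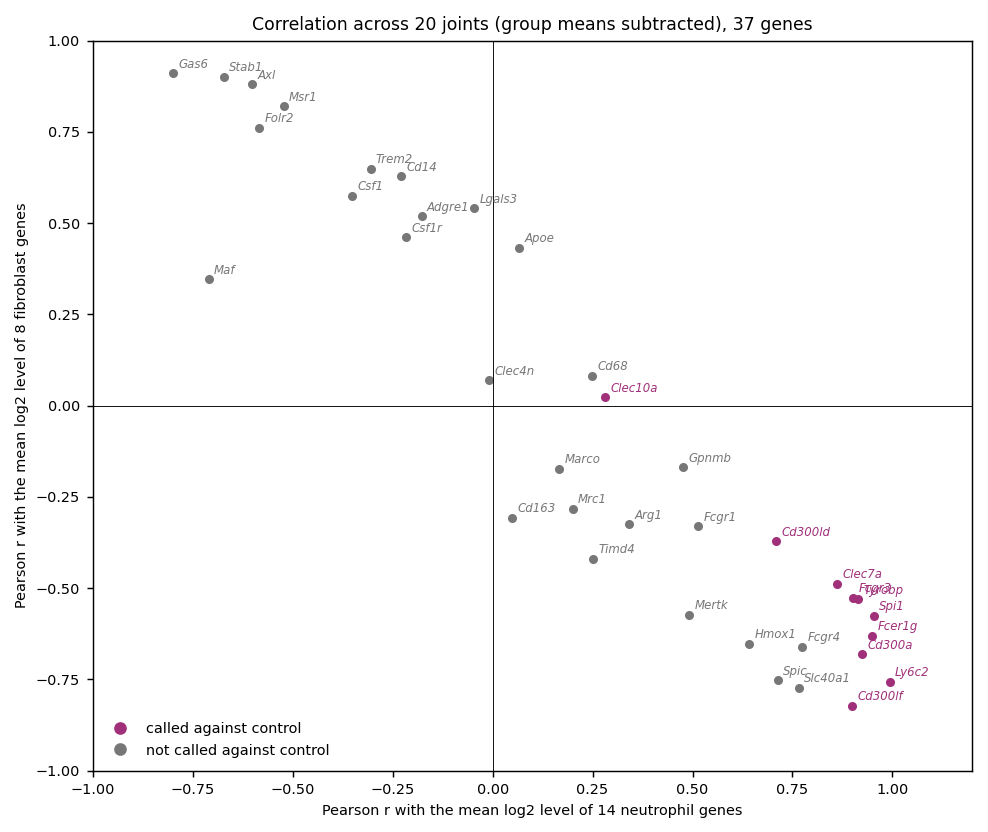
Pearson r of each of the 37 genes with the mean log2 level of 14 neutrophil genes (horizontal axis) and of 8 fibroblast genes (vertical axis) across 20 joints after subtracting group means. The genes called against control lie at the lower right, from Cd300ld (r = 0.71 with neutrophils) to Ly6c2 (r = 0.99), apart from Clec10a (r = 0.28), and Gas6, Stab1 and Axl lie at the upper left.

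The neutrophil level of each joint was entered in the limma fit as a covariate, also chosen after the data were seen. Cd300ld was still called at an unadjusted p of 0.05 or less in all 3 comparisons with control, at 0.44 in MSC, 0.36 in TLR3-MSC and 0.28 in STING-MSC joints, with limma adjusted p of 0.271, 0.514 and 0.625. Each of its differences was smaller than without the covariate. Clec10a was still called in TLR3-MSC joints at 0.40 (limma adjusted p = 0.523), while in MSC joints it was 0.21 and in STING-MSC joints 0.35, neither called. No other gene kept its call against control in the direction seen without the covariate. Tyrobp went to 0.10 in MSC and 0.04 in STING-MSC joints, and Fcgr3 to 0.10 and 0.13. Ly6c2 went to -0.15 in MSC joints and was called lower, and Fcer1g was called lower in STING-MSC joints at -0.18. With the covariate, 8 of 37 genes were called in MSC, 3 in TLR3-MSC and 3 in STING-MSC joints, beside 14.5%, 9.45% and 7.86% of all genes in the same fit. The 3 of 37 (8.11%) were thus at about the share of all genes in TLR3-MSC and STING-MSC joints. The 8 included Spic (-0.67), Hmox1 (-0.78), Slc40a1 (-0.59), Fcgr1 (-0.44) and Arg1 (-2.72), all lower, and Gas6 (0.30), higher. Gas6 was also higher in TLR3-MSC joints (0.22) and Maf in STING-MSC joints (0.34). A covariate measured in the same joints after treatment can itself carry an effect of treatment, and the part of neutrophil RNA in the unadjusted differences was not tested.

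**Figure D5:**
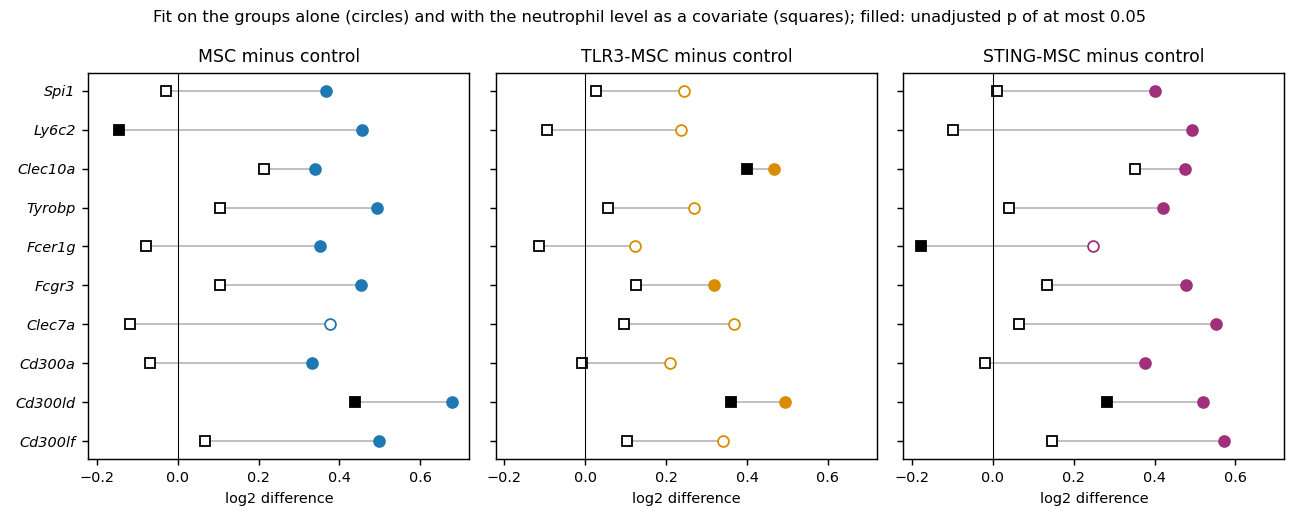
Log2 differences from control of the 10 genes called in any comparison with control, fitted on the groups alone (circles) and with the neutrophil level of each joint as a covariate (squares), with filled symbols for an unadjusted p of at most 0.05. Cd300ld keeps a filled square in each panel, at 0.44, 0.36 and 0.28, and most other squares lie near 0.

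A further 125 myeloid genes outside the 37 were listed by role, of which 121 were measured. They were listed with earlier results of these data known, so their counts beside those of all genes are a description and not a test. In MSC joints 34 were called higher and 0 lower, in TLR3-MSC 20 and 1, and in STING-MSC joints 48 and 1, with median log2 differences of 0.23, 0.18 and 0.29. Of all genes, 5.64%, 2.68% and 6.54% were called higher, with medians of -0.04, -0.01 and 0.01. The lists also hold genes of other myeloid cells, such as Csf3r, so these counts are not particular to macrophages and monocytes. In the list of CD300, lectin and paired receptors, 15, 8 and 15 of 26 were called higher. Clec4d and Clec4e, lectins that sense microbial and damage-associated glycolipids, had the smallest p of the list in MSC joints. Clec4e averaged 1219 against 521 in controls (1.15, SE 0.22, limma adjusted p = 0.0647), and all 5 joints were above all controls. Clec4d averaged 1400 against 695 (0.99, adjusted p = 0.0647). C5ar1, the receptor for complement C5a, was higher by 0.60, 0.42 and 0.53 in the 3 groups, and Csf3r, the receptor for the neutrophil growth factor G-CSF, by 0.65, 0.43 and 0.70. Selenop, the plasma selenoprotein that macrophages also make, was higher by 0.34 in TLR3-MSC and 0.28 in STING-MSC joints. Of 15 signalling proteins downstream of the adaptors, 4, 1 and 11 were called higher.

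Between treated groups the counts were close to or under the share of all genes. In TLR3-MSC against MSC joints 5 of 121 were lower and 0 higher, beside 3.88% of all genes called in either direction, with a limma adjusted p of 0.978 for each of those named, Clec4e (-0.68), Trem1 (-0.61), an amplifier of neutrophil and monocyte responses, and Aif1 (-0.37), the IBA1 protein of macrophages. In STING-MSC against MSC joints, where 3 of 121 were called beside 4.94% of all genes, Ccr2, the chemokine receptor of recruited monocytes, was higher by 0.37, and Trem1 (-0.56) and Id3 (-0.52) were lower. In STING-MSC against TLR3-MSC joints Sirpb1c was higher by 0.47. Cd300lg, a CD300 receptor of endothelium, was the one family member called lower, at -0.21 in TLR3-MSC joints. Over all 4 groups, limma's F test called 5 of the 37 genes, Cd300ld, Fcgr3, Cd300lf, Tyrobp and Clec10a, beside 6.42% of all genes, and the lowest adjusted p was 0.282 for Cd300ld.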

How the data were processed

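RNA of 20 joints was sequenced, with 5 joints in each group. Per the labels and the study's methods, the authors removed adapters and low-quality reads, aligned to GRCm39 with STAR 2.7.3a, counted reads per gene with HTSeq on Ensembl annotation and normalized by median ratio in Partek Flow. The deposited signal values are counts divided by a size factor for each joint, and dividing by the step between low values gave whole reads for 99.8% to 99.9% of values within 0.1. The strand setting of counting is not given in the sources used here.

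Values were tested as log2(value + 1) with limma 3.58.1 in R 4.3.3 over all 14793 genes and 20 joints, with Benjamini-Hochberg adjustment, after a test on simulated data. Single genes were also tested by exact two-sided permutation of joints. Each result was recomputed with a pseudocount of 0.5 or 5, with genes of a mean under 20 left out (a minimum of 5 removed no gene), with quantile normalization, a replicate block, only the compared groups, each joint left out, and edgeR 4.0.16 and DESeq2 1.42.0 on recovered reads. Replicates are separate mice, and no 2 joints of a group agreed within sampling noise.

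The 37 genes, the cell lists and the other myeloid lists were chosen with earlier results of these data known. The relations with the cell lists, the r of 0.7 used to count them and the neutrophil covariate were chosen after seeing the data. Values in every joint are given for genes called in any comparison and for Csf1, Csf1r, Adgre1, Cd68, Tyrobp and Spi1, and of the other myeloid lists at most 3 called genes with the smallest p are named per comparison. Cd300lg was named after its value was seen. Promoters were read from GRCm39 with GENCODE M39. Protein sequences were not used here.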

Additional observations from a re-analysis of the deposited data

Results flagged for a closer look

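An isolated highest joint was found in 10 of 148 gene and group combinations. Its gap to the next joint exceeded Dixon's 95% limit for 5 values, which chance passes in about 1 in 20 for normally distributed values. The limit was applied to normalized counts, which need not be so distributed, and the genes share joints, so that rate is a rough guide. STING-MSC replicate 3 was the joint in 4 of the 10 combinations. Its normalized counts were 685 for Msr1 (others 408 to 471), 408 for Timd4 (152 to 214), 828 for Fcgr1 (447 to 528) and 125 for Arg1 (5.00 to 12.2). The higher Timd4 level in STING-MSC than MSC joints was not called without this joint (1.06 on the log2 scale).

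Marco was isolated in 3 groups, at 681 in MSC replicate 1 (others 0 to 19.0), 44.7 in TLR3-MSC replicate 1 (11.3 to 20.1) and 177 in STING-MSC replicate 4 (13.4 to 28.8). In control joints, Mrc1 stood at 7020 in replicate 5 (others 4547 to 5229), Arg1 at 292 in replicate 5 (4.57 to 30.7) and Gas6 at 10761 in replicate 4 (7477 to 8410). No explanation of these joints was tested.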

How the results depend on the processing

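Of 23 called gene and comparison results, recomputed in 437 settings, 358 stayed called in the same direction, 73 lost the call and 6 reversed. Cd300ld in its 3 comparisons with control and Clec10a in TLR3-MSC joints kept the call in all settings run. The reversals came with the neutrophil covariate, at -0.030 for Spi1, -0.15 for Ly6c2, -0.079 for Fcer1g and -0.069 for Cd300a in MSC joints and at -0.10 for Ly6c2 and -0.019 for Cd300a in STING-MSC joints. The covariate also gave 3 called genes in STING-MSC minus control, 2 in STING-MSC minus MSC, 0 in STING-MSC minus TLR3-MSC and 2 over all groups, beside 7.86%, 8.85%, 1.84% and 8.23% of all genes. Fitting only the compared groups gave 5 for MSC minus control and 2 for STING-MSC minus TLR3-MSC, where 908 and 1258 of all 14793 genes were called. edgeR gave 0 for STING-MSC minus MSC, beside 4.85% of all genes. For STING-MSC minus TLR3-MSC both edgeR and DESeq2 gave 0, beside 4.09% and 4.58% of all genes. DESeq2 gave 1 for TLR3-MSC minus MSC, beside 4.7% of all genes. The cause of each change was not tested.

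With single joints left out, counts ran from 4 to 11 for MSC minus control (4 without control replicate 4 or MSC replicate 3), 2 to 7 for TLR3-MSC minus control (7 without control replicate 1), 7 to 11 for STING-MSC minus control, 0 to 2 in each comparison between treated groups, and 3 to 10 over all groups (3 without control replicate 4, 10 without control replicate 1, 9 without MSC replicate 5). Calls over all 14793 genes moved too. They ran from 852 to 2468 for MSC minus control, 301 to 810 for TLR3-MSC minus control and 868 to 2329 for STING-MSC minus control. Between treated groups they ran from 579 to 985 for STING-MSC minus MSC and from 363 to 1477 for TLR3-MSC minus MSC. For STING-MSC minus TLR3-MSC they ran from 144 to 758. Over all groups they ran from 622 to 1653. For Gas6 and Mertk r ran from -0.643 to -0.542, and the pair did not pass without TLR3-MSC replicate 1 (-0.542). For Lgals3 and Gpnmb r ran from 0.198 to 0.593, and it passed at 0.586 without control replicate 1.

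Replicate numbers were not taken to pair the joints, since in no comparison did all 5 same-numbered pairs correlate above 0.1. Single pairs ran from -0.658 to 0.464, the means from -0.144 to 0.108, and 4 of 5 pairs were above 0.1 in TLR3-MSC minus MSC. A replicate block gave 0 for STING-MSC minus TLR3-MSC, 6 over all groups and the same counts as without it elsewhere. In that fit 291 of all 14793 genes were called in STING-MSC minus TLR3-MSC and 798 over all groups. With 5 joints a group, an exact p cannot go below 0.00794. Marco and Arg1 had under 10 reads in some joints.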
